A study of Mus musculus with 22 samples.

Results

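Microglia, which are the macrophages native to brain tissue, were compared between control mice given lipopolysaccharide (LPS), a component of the bacterial outer membrane, and control mice given buffer (PBS). The comparison covers all genes and was chosen by label: 4 libraries of the LPS group (Ctrl-LPS) and 4 of the PBS group (Ctrl-PBS), 8 of the 22 libraries of the series. All mice were C57BL/6J males, 17.5 months old when the brains were taken. Neither group received the Gulf War chemicals. In their place both had vehicle injections for 10 days at 10 weeks of age, and later the vehicle of cannabidiol (5% Tween 80 in PBS) daily for 28 days and every 2 days for 2 weeks more. On the next morning the Ctrl-LPS mice received LPS at 0.33 mg/kg into the abdomen and the Ctrl-PBS mice the same volume of PBS, and brains were collected 24 hours later. Live CD45mid, CD11b+ and CD11a- cells were sorted, and their polyadenylated RNA was sequenced in 1 library per sample. It is not stated in the labels that libraries are separate mice, and p-values measure the spread between these samples, which may be technical. The other 14 libraries came from mice that had received pyridostigmine bromide (0.7 mg/kg) and permethrin (200 mg/kg), called GW, with the cannabidiol vehicle (GW-LPS, n = 3, and GW-PBS, n = 4) or with cannabidiol at 30 mg/kg (CBD; GW-CBD-LPS, n = 4, and GW-CBD-PBS, n = 3).

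LPS is bound by CD14 and by the receptor pair TLR4 and MD-2, which signals through the adaptors MyD88 and TRIF to NF-kB and to interferon regulatory factors. In macrophages the first wave of cytokine transcripts is followed by feedback inhibitors, interferon-stimulated genes and secreted acute phase proteins. An injection of LPS into the abdomen acts on microglia largely through signals from the periphery, and it also raises circulating glucocorticoids, steroid hormones that microglia sense through the receptor encoded by Nr3c1.

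The 8 libraries held 31987884 to 38831070 counts, and 14036 to 15405 genes in each had at least 10 counts. Microglial identity genes were abundant throughout: Cx3cr1, the fractalkine receptor, had 2090, 2338, 3353 and 2010 CPM in Ctrl-LPS, against 4782, 3971, 3484 and 4328 CPM in Ctrl-PBS, where CPM are counts scaled by library size and TMM factor. Libraries in each list below are given in the order of replicates 1 to 4. Markers of neutrophils, which the gate should leave out, stood apart in 2 libraries. The summed level of 18 neutrophil markers was 3764, 64.9, 27.1 and 102 CPM in Ctrl-LPS, against 70.6, 54.2, 29216 and 26.0 CPM in Ctrl-PBS. Thus Ctrl-PBS replicate 3 and, at a lower level, Ctrl-LPS replicate 1 lay above the others, and S100a9, a neutrophil granule protein, was detected in all 8 libraries, with 805, 19.7, 7.95 and 29.2 CPM in Ctrl-LPS, against 12.6, 8.47, 5343 and 2.4 CPM in Ctrl-PBS. Results are therefore given with all 8 libraries and without these 2. Of the genes behind the gate, Ptprc (CD45) had 303 ± 48 CPM in Ctrl-LPS and 266 ± 46.1 CPM in Ctrl-PBS (SD, n = 4 each) and Itgam (CD11b) had 355 ± 25.4 CPM in Ctrl-LPS and 293 ± 20.01 CPM in Ctrl-PBS (SD, n = 4 each), and neither passed the test. Itgal, which encodes CD11a, had 26.5, 14.3, 7.11 and 9.82 CPM in Ctrl-LPS, against 2.59, 0.026, 36.5 and 1.09 CPM in Ctrl-PBS. It was not called with all libraries (log2 fold change 0.52 ± 1.00, adjusted p = 0.76) but was higher in Ctrl-LPS without the 2 libraries (3.07 ± 0.90, adjusted p = 0.03) and without Ctrl-PBS replicate 3 alone (3.51, adjusted p = 0.01).

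LPS changed a large share of the microglial transcriptome. Of 16554 genes tested, 3378 (20.4%) were called at an adjusted p under 0.05, 1785 higher (10.8%) and 1593 lower (9.62%) in Ctrl-LPS. Changes of at least 2-fold were made up of 550 genes higher and 894 lower, and changes of at least 8-fold of 73 higher and 201 lower. Without Ctrl-PBS replicate 3 and Ctrl-LPS replicate 1, 16359 genes were tested and 2021 called, 986 higher (6.03%) and 1035 lower (6.33%). Without Ctrl-LPS replicate 1 alone 1179 genes were called higher. Of the 2021, 1888 had been called in the same direction with all libraries, which is 55.9% of the calls with all libraries and 93.4% of the calls without the 2. No gene was called in opposite directions. The 4 libraries of each group did not overlap for 2015 genes above (12.2%) and 1790 genes below (10.8%) Ctrl-PBS. Of these 3805 genes, 2819 were called. The calls held for 1912 genes whichever of the 8 libraries was left out. Of 163 genes named in these results as called with all libraries, 156 were also called in the same direction without the 2 libraries. The exceptions were C1qc, Ccl2, Elane, Igf1, Klf9, Smad3 and Tlr2. Many of the named genes were chosen from those called both ways. The 156 therefore follows in part from that choice and does not stand for all calls, of which 55.9% held.

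**Figure D1:**
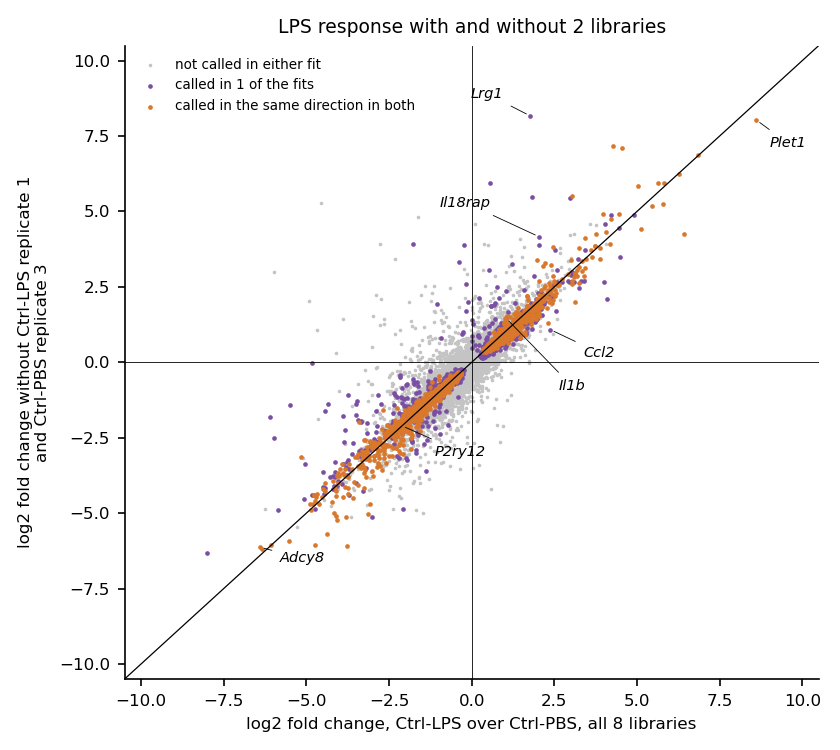
Log2 fold change (Ctrl-LPS over Ctrl-PBS) of the genes tested with all 8 libraries (horizontal axis) and without Ctrl-PBS replicate 3 and Ctrl-LPS replicate 1 (vertical axis). Orange points are the 1864 drawn genes called in the same direction both ways, purple points those called in 1 of the fits, and grey points the rest, while 149 genes with no counts in a group are not drawn. The median absolute difference between the 2 values of an orange point was 0.09 on the log2 scale. Orange points are chosen for agreeing calls in fits that share most libraries, which favours a small difference. Lrg1, called without the 2 libraries alone, lies above the diagonal at 1.77 with all libraries and 8.17 without the 2.

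Counts of called members in 18 gene lists are shown beside these background shares in the plot of lists. Every list count below stands beside 10.8% of all genes tested higher and 9.62% lower with all libraries. Without the 2 libraries the shares are 6.03% and 6.33%. The interferon, Fc receptor and glucocorticoid lists lay above the background on the higher side, and the homeostatic, class II and clock lists on the lower side.

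**Figure D2:**
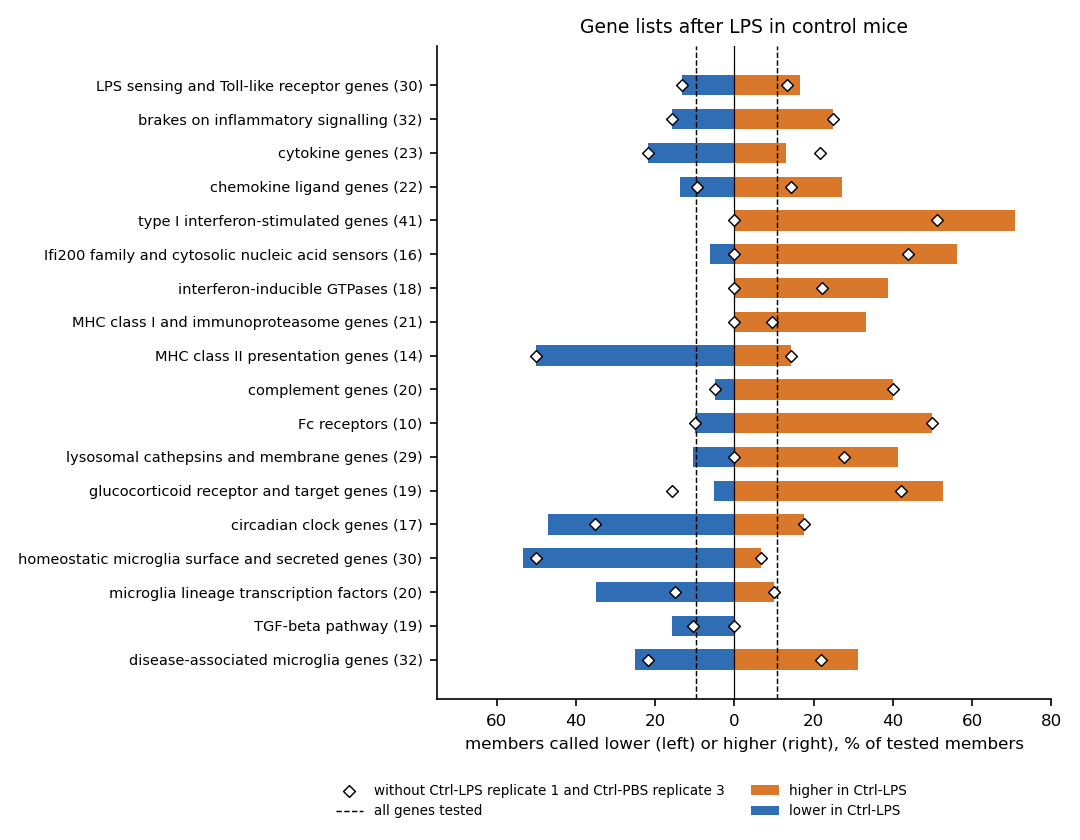
Share of tested members called higher (orange, to the right) and lower (blue, to the left) in Ctrl-LPS, in percent, for 18 gene lists with the number of tested members in brackets. Open diamonds give the share without Ctrl-PBS replicate 3 and Ctrl-LPS replicate 1, and dashed lines mark the 10.8% and 9.62% of all genes tested.

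Among genes called with and without the 2 libraries and with 5 CPM or more in Ctrl-LPS, the highest fold changes were found in genes with few or no counts in Ctrl-PBS. Saa3, an acute phase serum amyloid A protein (chr7, minus strand), had 471, 140.3, 57.2 and 278 CPM in Ctrl-LPS, against 0, 0, 0.404 and 0 CPM in Ctrl-PBS. Transcripts were found in every LPS library and in 1 PBS library, replicate 3, at a trace. Its log2 fold change was 11.17 ± 1.40 (SE, adjusted p = 1.5e-05), resting on the trace in that library, and no fold is given without the 2 libraries, where Ctrl-PBS had no counts. Plet1, a lipid-anchored surface protein, had 102, 55.9, 9.78 and 145 CPM in Ctrl-LPS, against 0.244, 0.312, 0 and 0.224 CPM in Ctrl-PBS (8.61 ± 1.11, adjusted p = 2.0e-05). Adamtsl4, a secreted matrix protein, had 125, 135, 39.3 and 118 CPM in Ctrl-LPS, against 1.19, 0.649, 1.53 and 1.99 CPM in Ctrl-PBS (6.28 ± 0.57, adjusted p = 4.8e-07). For all 3 genes Ctrl-LPS replicate 3 was the lowest of the LPS libraries and still far above every PBS library.

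Cd244a, a receptor of the SLAM family, was more even, with 244, 206, 182 and 207 CPM in Ctrl-LPS, against 3.05, 4.08, 5.37 and 2.38 CPM in Ctrl-PBS (5.82 ± 0.44, adjusted p = 1.1e-07). Msr1, the class A scavenger receptor, had 415, 171, 134 and 176 CPM in Ctrl-LPS, against 14.1, 14.9, 15.9 and 15.5 CPM in Ctrl-PBS (3.89 ± 0.40), and Ms4a6c, a four-span membrane protein, had 407, 206, 121 and 384 CPM in Ctrl-LPS, against 22.3, 21.1, 26.4 and 19.4 CPM in Ctrl-PBS (3.65 ± 0.30). The lowest LPS library exceeded the highest PBS library for each of them. Among the other genes with the largest rises were Cxcl13, a chemokine for B cells (5.11), Slc10a6, a carrier of sulfated steroids (4.46), Ddit4, an inhibitor of mTORC1 (4.05), and Cd300lf, an inhibitory receptor (3.97, and 5.51 without Ctrl-PBS replicate 3 or 3.37 without Ctrl-LPS replicate 1). Il1r2, a decoy receptor for interleukin-1, was called with all libraries (4.56 ± 1.29, adjusted p = 0.016) and without the 2 (7.12 ± 1.30, adjusted p = 0.0011), with 7.85 without Ctrl-PBS replicate 3, but not without Ctrl-LPS replicate 1 alone (3.80, adjusted p = 0.0501).

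Among genes called both ways and with 5 CPM or more in Ctrl-PBS, the lowest fold changes were likewise found in genes of low level. Adcy8, an adenylyl cyclase, had 0, 0, 0.264 and 0 CPM in Ctrl-LPS, against 7.52, 4.28, 5.48 and 8.25 CPM in Ctrl-PBS (-6.40 ± 0.72, adjusted p = 4.6e-06). Duoxa1, which matures a dual oxidase, had 0.0351, 0.0555, 0.502 and 0 CPM in Ctrl-LPS, against 16.9, 15.3, 9.87 and 10.4 CPM in Ctrl-PBS (-6.34 ± 0.74). Both transcripts were at or near 0 in every LPS library and present in every PBS library. The few counts in Ctrl-LPS replicate 3 set the size of these values. Without it Duoxa1 had -8.59, and no fold is given for Adcy8, which had no counts in the other 3 LPS libraries. Tnfrsf17, the receptor BCMA (-4.18), Pla2g2d, a secreted phospholipase (-3.83, and -4.66 without Ctrl-LPS replicate 3), and Ramp1, a subunit of the receptor for calcitonin gene-related peptide, also fell. Ramp1 had 7.02, 6.16, 8.11 and 9.85 CPM in Ctrl-LPS, against 61.6, 79.3, 82.9 and 70.2 CPM in Ctrl-PBS (-3.24 ± 0.36).

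Some of the genes with the smallest p-values had libraries that agreed closely within each group, while others varied more. Rab32, a small GTPase of lysosome-related organelles, had 335, 314, 286 and 344 CPM in Ctrl-LPS, against 124, 128, 134 and 122 CPM in Ctrl-PBS (1.33 ± 0.10, adjusted p = 1.1e-07). Ptpn1, a tyrosine phosphatase that acts on JAK kinases, had 963, 793, 793 and 806 CPM in Ctrl-LPS, against 338, 300.4, 340.4 and 322 CPM in Ctrl-PBS (1.37 ± 0.11). Psat1, an enzyme of serine synthesis (2.65 ± 0.22), Gpr35 (2.22 ± 0.19) and Spint1, a protease inhibitor (2.11 ± 0.19), rose, and Chst8, a sulfotransferase, fell (-1.78 ± 0.15). In each of these 6 genes the groups did not overlap.

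The promoter sequences of 4 genes chosen from those with the largest rise or the smallest p (Saa3, Myd88, Fcgr4 and Bcl3) are shown with the motifs searched in them. All 4 hold a motif, whereas Il1r2, Slc10a6, Cd300lf, Psat1 and Gpr35, which met the same rule, held none. The 4 therefore do not stand for the promoters of such genes in general. The letters are the 250 bases before the start site in the RefSeq table of GRCm38.p6, 5′ to 3′ in the direction of transcription. Capitals mark a match on either strand to 1 of 3 motifs: GGG and CC with any 5 bases between them (NF-kB), GAAA and GAAA with any 2 bases between them (the core of the interferon-stimulated response element, ISRE), or TTGC and AA with any 2 bases between them (C/EBP). Saa3 (chr7:46715677-46715926, minus strand) holds the ISRE core 125 bases upstream and the C/EBP letters on the other strand 99 bases upstream. Myd88 (chr9:119340019-119340268, minus strand) holds the ISRE core 40 bases upstream. Fcgr4 (chr1:171018676-171018925, plus strand) holds NF-kB letters 152, 151 and 120 bases upstream, the first 2 overlapping, and the ISRE core 73 bases upstream. Bcl3 (chr7:19822756-19823005, minus strand) holds NF-kB letters 85, 46 and 45 bases upstream, the last 2 overlapping.
Saa3: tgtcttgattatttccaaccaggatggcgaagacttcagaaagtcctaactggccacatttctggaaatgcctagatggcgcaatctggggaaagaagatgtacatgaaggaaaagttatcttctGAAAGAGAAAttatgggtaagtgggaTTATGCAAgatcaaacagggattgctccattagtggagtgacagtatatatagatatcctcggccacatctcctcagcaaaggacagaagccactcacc
Myd88: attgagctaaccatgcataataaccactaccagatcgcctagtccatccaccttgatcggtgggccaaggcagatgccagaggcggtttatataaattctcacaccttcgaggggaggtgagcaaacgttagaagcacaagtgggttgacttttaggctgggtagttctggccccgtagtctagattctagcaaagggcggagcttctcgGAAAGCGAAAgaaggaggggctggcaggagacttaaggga
Fcgr4: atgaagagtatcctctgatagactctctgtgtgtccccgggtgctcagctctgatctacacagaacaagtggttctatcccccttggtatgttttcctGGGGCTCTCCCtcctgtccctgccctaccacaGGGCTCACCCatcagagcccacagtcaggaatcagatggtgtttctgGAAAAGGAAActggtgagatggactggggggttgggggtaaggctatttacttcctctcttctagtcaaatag
Bcl3: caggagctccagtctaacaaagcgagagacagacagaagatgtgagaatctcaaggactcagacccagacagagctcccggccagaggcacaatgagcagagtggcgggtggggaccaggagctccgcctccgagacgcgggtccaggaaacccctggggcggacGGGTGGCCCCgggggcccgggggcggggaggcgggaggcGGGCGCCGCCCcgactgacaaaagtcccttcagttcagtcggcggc
Windows of 250 bases before to 50 bases after the start site were found for 11295 of the 16554 genes tested. The NF-kB letters are common, in 66.8% of genes called higher, 65.1% of genes called lower and 66.5% of all genes tested with a promoter (50.4% of all 27025 promoters). The ISRE core was present in 5.2% of genes called higher, 3.12% of genes called lower and 3.29% of genes tested (3.49% of all promoters). The C/EBP letters were present in 8.36% of genes called higher, 8.67% of genes called lower and 8.61% of genes tested (10.8% of all promoters). A match describes these letters and is not a measured binding site.

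Of 30 tested genes that sense LPS, 5 were higher and 4 lower with all libraries, near the 10.8% and 9.62% of all genes tested, and 4 each without the 2. The count of members higher was 3 without Ctrl-PBS replicate 2 and 3 without Ctrl-PBS replicate 4. Myd88, the adaptor of most Toll-like receptors, had 282, 242, 249.8 and 260.4 CPM in Ctrl-LPS, against 136, 134, 138 and 118 CPM in Ctrl-PBS (0.98 ± 0.09, adjusted p = 4.8e-07). Cd14, the co-receptor that hands LPS to TLR4, had 2542, 1190, 885 and 1681 CPM in Ctrl-LPS, against 663, 758, 746 and 692 CPM in Ctrl-PBS (1.14 ± 0.26, adjusted p = 0.0034). All LPS libraries lay above all PBS libraries for both genes, and Ctrl-LPS replicate 1 was the highest. Tlr4 itself had 77.2 ± 25 CPM in Ctrl-LPS and 90.4 ± 10.7 CPM in Ctrl-PBS (SD, n = 4 each) and did not pass the test (adjusted p = 0.4). Cd180, a relative of TLR4 that dampens its signal, had 17.1, 13.3, 22.5 and 9.5 CPM in Ctrl-LPS, against 62.9, 67.4, 52 and 60.8 CPM in Ctrl-PBS (-1.96 ± 0.23). Tlr5, the flagellin receptor (-1.69), and Tlr12 (-1.28) also fell. Tlr2, the receptor for bacterial lipoproteins, was called with all libraries (0.66, adjusted p = 0.034) but not without Ctrl-LPS replicate 1 (0.28, adjusted p = 0.24) or without any of the 4 PBS libraries (adjusted p 0.056 to 0.082).

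In the NF-kB list 3 of 20 members were higher and 3 lower with all libraries, beside 10.8% and 9.62% of all genes tested. Without the 2 libraries 3 were higher and 4 lower, beside 6.03% and 6.33%. Bcl3, a nuclear inhibitor protein that binds NF-kB p50 and p52, had 145, 97.4, 78.8 and 98.8 CPM in Ctrl-LPS, against 10.6, 13, 19.7 and 12 CPM in Ctrl-PBS (2.93 ± 0.27, adjusted p = 4.8e-07). Nfkbia, which encodes the inhibitor IkB-alpha, had 1686, 834, 623 and 1127 CPM in Ctrl-LPS, against 265, 318, 519.7 and 343 CPM in Ctrl-PBS (1.56 ± 0.31, adjusted p = 0.0013). Tnip2, an inhibitor of the pathway, also rose (0.98). The subunit genes Nfkb1, with 95.5, 104, 103 and 88 CPM in Ctrl-LPS, against 181, 164, 151 and 167 CPM in Ctrl-PBS (-0.76 ± 0.11), and Rel (-0.69) fell, and Rela had a log2 fold change of 0.01 ± 0.10 (adjusted p = 0.94). The LPS libraries were all above the PBS libraries for Bcl3 and Nfkbia and all below for Nfkb1.

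Of the brakes on inflammatory signalling, 8 of 32 members were higher and 5 lower, with the same counts without the 2 libraries. Socs3, an inhibitor of STAT3 signalling, had 1669, 1760, 1237 and 1266 CPM in Ctrl-LPS, against 185, 192, 273 and 246 CPM in Ctrl-PBS (2.73 ± 0.29, adjusted p = 2.5e-06). Il4ra, the receptor chain for interleukin-4 and interleukin-13, had 1036, 883, 875 and 646 CPM in Ctrl-LPS, against 256, 165, 235 and 237 CPM in Ctrl-PBS (1.95 ± 0.21). Il18bp, a binding protein that neutralises interleukin-18 (2.12), Dusp1, a phosphatase of MAP kinases (1.46), and Pilra, an inhibitory receptor (1.91), rose. The groups did not overlap for any of these 5 genes. Sirpa, the receptor for the CD47 signal (-1.15), Ptpn22 (-2.17), and Cd200r1, the receptor for CD200 (-0.58), fell. Il10, interleukin-10, was near the detection limit, with 3.3, 0.194, 1.00 and 0.481 CPM in Ctrl-LPS, against 0.274, 0.675, 0.548 and 0.531 CPM in Ctrl-PBS and no call (adjusted p = 0.38).

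Of 23 cytokine genes tested 24 hours after LPS, 3 were higher and 5 lower with all libraries, beside 10.8% and 9.62% of all genes tested. Without the 2 libraries 5 were higher and 5 lower, beside 6.03% and 6.33%, and 5 were also higher without Ctrl-PBS replicate 3. Tnf, tumour necrosis factor, had 296, 111, 80.6 and 92.7 CPM in Ctrl-LPS, against 38.1, 36.2, 73.7 and 37.2 CPM in Ctrl-PBS (1.65 ± 0.40, adjusted p = 0.0056, and 1.03 without Ctrl-LPS replicate 1), the highest value being that of Ctrl-LPS replicate 1. Il1b, interleukin-1 beta, had 487, 184, 155 and 145 CPM in Ctrl-LPS, against 43.8, 62.4, 300.4 and 66.9 CPM in Ctrl-PBS. Ctrl-PBS replicate 3, with the highest neutrophil marker level, exceeded 3 of the 4 LPS libraries for Il1b. The gene was not called with all libraries (1.04 ± 0.56, adjusted p = 0.21) and was higher without the 2 (1.47 ± 0.44, adjusted p = 0.036) and without Ctrl-PBS replicate 3 alone (2.03, adjusted p = 0.0076). Il6, interleukin-6, had 10.7, 1.67, 0.951 and 1.54 CPM in Ctrl-LPS, against 5.57, 7.3, 7.15 and 4.39 CPM in Ctrl-PBS. It was not called with all libraries (-0.72 ± 0.59, adjusted p = 0.42), and it was lower without the 2 (-2.07 ± 0.50, adjusted p = 0.0088) and without Ctrl-LPS replicate 1 alone (-2.14, adjusted p = 0.0045). Tnfsf9, the 4-1BB ligand (1.92), rose. Il15, a growth factor for natural killer and T cells (-0.83), Tgfb1, which sustains microglia (-0.65), and Clcf1 (-0.97) fell. Igf1, a growth factor, was lower with all libraries (-1.30) and not called without the 2 (-1.05, adjusted p = 0.065).

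Chemokines varied between the LPS libraries. With all libraries 6 of 22 were higher and 3 lower, and without the 2 libraries 3 of 21 were higher and 2 lower. Leaving out Ctrl-LPS replicate 1 alone left 3 higher. Cxcl13 had 364, 141, 41.7 and 155 CPM in Ctrl-LPS, against 3.41, 3.74, 4.85 and 8.33 CPM in Ctrl-PBS (5.11 ± 0.74, adjusted p = 6.3e-05, and 4.47 without Ctrl-LPS replicate 1), and Ccl12, a ligand of CCR2, had 1712, 229, 478 and 233 CPM in Ctrl-LPS, against 76.5, 90.5, 73.8 and 65.7 CPM in Ctrl-PBS (3.11 ± 0.49, adjusted p = 1.3e-04, and 2.03 without Ctrl-LPS replicate 1). The 2 genes were higher in every LPS library. Ccl2, the main monocyte attractant, had 310, 34.1, 48.8 and 47.8 CPM in Ctrl-LPS, against 15.8, 26.8, 24.1 and 18.2 CPM in Ctrl-PBS, with Ctrl-LPS replicate 1 far above the rest. It was called with all libraries (2.37 ± 0.56, adjusted p = 0.0044) and not without Ctrl-LPS replicate 1 (1.04, adjusted p = 0.053) or without the 2 (1.09 ± 0.38, adjusted p = 0.072). Cxcl10, an interferon-induced attractant of T cells, had 74.1, 14.4, 11 and 8.7 CPM in Ctrl-LPS, against 10.5, 18.4, 16.6 and 14.8 CPM in Ctrl-PBS and no call (adjusted p = 0.25). Ctrl-LPS replicate 1 had 3764 CPM of neutrophil markers, and their part in its chemokine level was not tested. Ccl24, an eosinophil attractant, had 1.54, 2.97, 4.39 and 1.86 CPM in Ctrl-LPS, against 15.1, 22.5, 16.6 and 21.1 CPM in Ctrl-PBS (-2.80 ± 0.47), lower in every LPS library.

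Receptors for cytokines and growth factors rose in 9 of 32 cases and fell in 4, and in 7 and 3 without the 2 libraries. The beta chains shared by the receptors for GM-CSF, interleukin-3 and interleukin-5 rose together with the GM-CSF alpha chain: Csf2rb2 (1.40), Csf2rb (1.40) and Csf2ra (0.90). Il15ra, the chain that presents interleukin-15, had 118, 73.7, 33.8 and 87.6 CPM in Ctrl-LPS, against 12.9, 15.5, 12.6 and 13.3 CPM in Ctrl-PBS (2.53 ± 0.33). Lifr, the receptor for leukaemia inhibitory factor, rose (1.30), while Il6st, the gp130 chain with which it pairs, fell (-1.40). Csf1r, the receptor on which microglia depend, had 7957 ± 1527 CPM in Ctrl-LPS and 9743 ± 1844 CPM in Ctrl-PBS (SD, n = 4 each) and did not pass the test (adjusted p = 0.26).

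**Figure D3:**
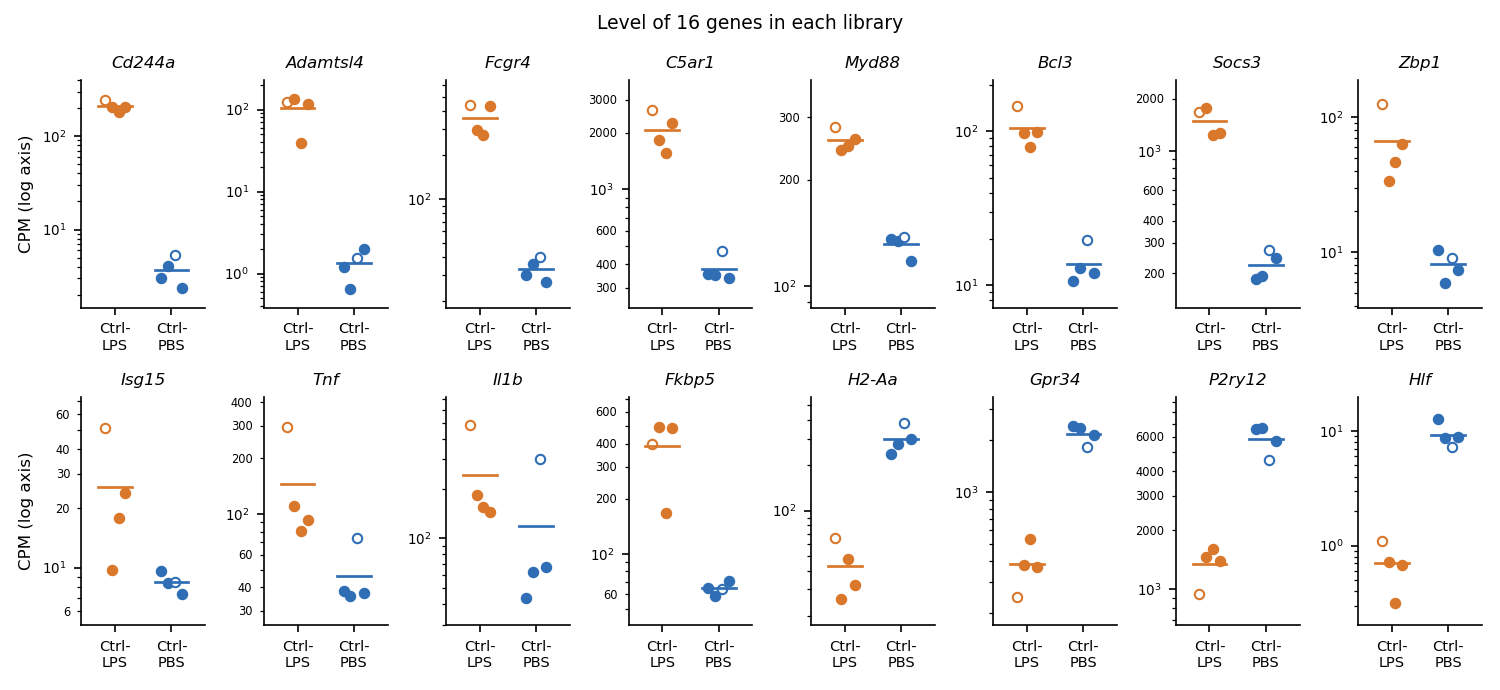
CPM of 16 genes in each library on a log axis, Ctrl-LPS (orange) left of Ctrl-PBS (blue), with a bar at the mean of each group. Open symbols are Ctrl-LPS replicate 1 and Ctrl-PBS replicate 3, the libraries with neutrophil transcripts. Ctrl-PBS replicate 3 reaches the LPS range for Il1b, and the groups do not overlap for the other genes shown.

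Interferon-stimulated genes rose together. Of 41 tested, 29 were higher and 0 lower with all libraries, and 21 were higher and 0 lower without the 2, with a median log2 fold change of 1.02 and 0.85, beside -0.02 and -0.01 over all genes tested. Summed over the list, the level was 5419, 2215, 2620 and 3455 CPM in Ctrl-LPS, against 1378, 1224, 1437 and 1134 CPM in Ctrl-PBS. Slfn2, a regulator of immune cell quiescence, had 629.6, 318, 348 and 409 CPM in Ctrl-LPS, against 87.6, 73.9, 158 and 73.5 CPM in Ctrl-PBS (2.12 ± 0.24, adjusted p = 4.6e-06). Zbp1, a sensor of Z-form nucleic acids, had 125, 33.6, 46.4 and 63.3 CPM in Ctrl-LPS, against 10.4, 5.84, 9.03 and 7.3 CPM in Ctrl-PBS (3.04 ± 0.38, adjusted p = 1.4e-05). Isg15, a ubiquitin-like modifier, had 51.2, 9.69, 18 and 23.9 CPM in Ctrl-LPS, against 9.59, 8.31, 8.45 and 7.33 CPM in Ctrl-PBS (1.61 ± 0.36, and 1.01 ± 0.32 without the 2 libraries). The groups did not overlap for these 3 genes, and Ctrl-LPS replicate 1 was the highest. Irf7, which amplifies interferon responses (1.94), Oasl2 (2.27), Rtp4 (2.03) and Ifitm3, which blocks viral entry (2.34, and 1.66 without Ctrl-LPS replicate 1), rose too. Ifit3, a classical member, did not pass the test, with 129, 40.7, 48.6 and 65 CPM in Ctrl-LPS, against 49.98, 46.4, 30.4 and 38.1 CPM in Ctrl-PBS (adjusted p = 0.069), but it was called without Ctrl-LPS replicate 2 (0.97, adjusted p = 0.025).

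Of the 16 tested genes of the Ifi200 family and other nucleic acid sensors, 9 were higher and 1 lower (7 and 0 without the 2 libraries). Ifi204 had 194, 113, 109 and 159 CPM in Ctrl-LPS, against 28.6, 21.7, 21.6 and 26.5 CPM in Ctrl-PBS (2.55 ± 0.23, adjusted p = 4.7e-07), and Ifi207 rose by 2.42 on the log2 scale. These genes are near-identical copies in 1 cluster, so reads may be split between them. Interferon-inducible GTPases were higher in 7 of 18 cases, lower in 0 (4 and 0 without the 2 libraries), led by Gbp7 (1.59), Gbp2 (1.37) and Irgm1 (0.92), with the same caution for the guanylate-binding proteins. The ISRE core printed above for Myd88 and Fcgr4 was present in 17 of 31 promoters of the interferon list (54.8%) and in 9 of 10 of the GTPases (90%), against 3.29% of genes tested. Within the interferon list 11 of 17 genes with the core and 9 of 14 genes without it were called higher.

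Genes of antigen presentation were counted by class. Class II genes fell: of 14 tested, 7 were lower and 2 higher, with the same counts without the 2 libraries. H2-Aa, a class II alpha chain, had 65.5, 25.9, 47.9 and 32.1 CPM in Ctrl-LPS, against 236, 276, 380.1 and 299 CPM in Ctrl-PBS (-2.80 ± 0.42, adjusted p = 7.9e-05). Cd74, the invariant chain that guides class II molecules, had 812, 355, 411 and 429 CPM in Ctrl-LPS, against 1210, 1578, 1931 and 1466 CPM in Ctrl-PBS (-1.62 ± 0.35, adjusted p = 0.0026). H2-Ab1 (-2.57) and H2-Eb1 (-2.86) also fell, as did Ciita, the class II transactivator (-2.13), and Cd80, a costimulatory ligand (-0.88). No LPS library reached the lowest PBS library for these 6 genes. The 2 that rose process antigen in lysosomes: Ifi30, a thiol reductase (1.71 ± 0.21), and Ctss, cathepsin S (0.80 ± 0.15). Class I and immunoproteasome genes were higher in 7 of 21 cases and lower in 0, beside 10.8% and 9.62% of all genes tested. Without the 2 libraries 2 of 21 were higher, near the 6.03% of all genes tested that way. The count was also 2 without Ctrl-LPS replicate 1 alone, and 4 without Ctrl-LPS replicate 4 or Ctrl-PBS replicate 1, 3 or 4. Tapbpl (0.65) and Psme1 (0.83) were the members with the smallest p. MHC genes have near-identical copies, so their shares of reads are uncertain.

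Complement genes were higher in 8 of 20 cases and lower in 1, with the same counts without the 2 libraries. C5ar1, the receptor for the anaphylatoxin C5a, had 2647, 1827, 1551 and 2252 CPM in Ctrl-LPS, against 353, 349, 470.2 and 337 CPM in Ctrl-PBS (2.45 ± 0.23, adjusted p = 4.8e-07). C4b, a complement component, had 251, 389, 439.7 and 287 CPM in Ctrl-LPS, against 68.7, 50.1, 71.8 and 71.6 CPM in Ctrl-PBS (2.38 ± 0.46, adjusted p = 9.2e-04). The chains of C1q, which starts the classical pathway, rose although abundant in Ctrl-PBS: C1qb had 26521, 19218, 17937 and 28405 CPM in Ctrl-LPS, against 10936, 14002, 10638 and 10905 CPM in Ctrl-PBS (0.99 ± 0.17), with C1qa at 0.85. C1qc was called with all libraries (0.67) and not without the 2 (0.54, adjusted p = 0.061). Vsig4, a receptor for C3 fragments, rose (2.46), and Itgax, the alpha chain of complement receptor 4, fell (-1.15). C3 itself had 27.5, 11, 8.35 and 12.6 CPM in Ctrl-LPS, against 6.46, 1.64, 95.8 and 9.98 CPM in Ctrl-PBS, highest in Ctrl-PBS replicate 3, and no call (adjusted p = 0.43).

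Receptors for antibodies rose in 5 of 10 cases and fell in 1, also without the 2 libraries. Fcgr4, the activating receptor whose promoter is printed above, had 436, 298, 274 and 433 CPM in Ctrl-LPS, against 30.1, 35.7, 39.9 and 26.9 CPM in Ctrl-PBS (3.44 ± 0.29, adjusted p = 2.6e-07). Fcgr3 (1.33), Fcgr1 (0.83), Fcgrt (0.83) and the inhibitory Fcgr2b (1.04) rose as well. Fcrl1 fell (-1.29). Of 24 scavenger and uptake receptors 4 were higher and 4 lower, beside 10.8% and 9.62% of all genes tested (2 and 4 without the 2 libraries, with 2 higher also without Ctrl-PBS replicate 2 or 3). Beside Msr1, Scarb1 rose (0.53), while Cd209a, a lectin (-3.03, and -4.01 without Ctrl-LPS replicate 3), Cd36, a fatty acid and oxidised lipid receptor (-1.82), and Cd93 (-1.41) fell.

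The homeostatic signature of microglia fell in part. Of 30 surface and secreted genes of this signature, 16 were lower and 2 higher, and 15 and 2 without the 2 libraries, with a median log2 fold change of -0.57 and -0.56. Gpr34, a lysophosphatidylserine receptor, had 247, 377, 536 and 365 CPM in Ctrl-LPS, against 2419, 2331, 1820 and 2127 CPM in Ctrl-PBS (-2.51 ± 0.22, adjusted p = 3.6e-07). P2ry12, the ADP receptor that directs process movement, had 943, 1469, 1612 and 1388 CPM in Ctrl-LPS, against 6564, 6672, 4582 and 5688 CPM in Ctrl-PBS (-2.12 ± 0.20, adjusted p = 5.3e-07). For both genes every LPS library lay below every PBS library by a wide margin. Siglech (-1.25), P2ry13 (-0.89), Tgfbr1, a receptor for TGF-beta (-1.44), and Cx3cr1 (-0.76) fell. Tmem119 fell by less: it had 4386, 4640, 5554 and 4416 CPM in Ctrl-LPS, against 7027, 5869, 5280 and 6212 CPM in Ctrl-PBS (-0.36 ± 0.11, adjusted p = 0.023), the lowest PBS library lay within the LPS range, and the call was lost without Ctrl-LPS replicate 1 or 4 or Ctrl-PBS replicate 1 or 4 (adjusted p 0.054 to 0.092). In these sorted bulk samples fewer cells of a type and less RNA per cell cannot be told apart.

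Among transcription factors that maintain microglia, of 20 tested, 7 were lower and 2 higher. Without the 2 libraries 3 were lower, and without Ctrl-LPS replicate 4 alone 4. Sall1, a factor that defines microglia among macrophages, had 119.5, 205, 216 and 131 CPM in Ctrl-LPS, against 398, 303, 308 and 382 CPM in Ctrl-PBS (-1.05 ± 0.21, adjusted p = 0.0012). Mef2c (-0.88) and Maf (-0.77) fell and Runx1 rose (0.64). In the TGF-beta pathway 3 of 19 members were lower and 0 higher, beside 9.62% and 10.8% of all genes tested. Without the 2 libraries 2 were lower and 0 higher, beside 6.33% and 6.03%. The 3 lower with all libraries were Tgfb1, Tgfbr1 and Smad3, a transducer of the signal (-0.79, and -0.73 with an adjusted p of 0.056 without the 2). Without Ctrl-LPS replicate 3 the number lower was 6. Among C/EBP, KLF, AP-1 and STAT factors 9 of 34 were higher and 3 lower (10 and 1 without the 2 libraries). Cebpb, a factor of acute phase genes, had 1349, 817, 627 and 1028 CPM in Ctrl-LPS, against 135, 192, 294 and 154 CPM in Ctrl-PBS (2.30 ± 0.28, adjusted p = 9.7e-06). Batf (1.43), Cebpd (1.28), Klf13 (1.83) and Stat3 (1.14) rose.

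Among genes known to respond to glucocorticoids, 10 of 19 tested were higher and 1 lower (8 and 3 without the 2 libraries, with 3 lower also without Ctrl-LPS replicate 1 and 2 without Ctrl-PBS replicate 3), with a median log2 fold change of 1.40. Fkbp5, a chaperone that restrains the glucocorticoid receptor, had 401, 497, 167 and 485 CPM in Ctrl-LPS, against 64.7, 58.9, 64.4 and 70.7 CPM in Ctrl-PBS (2.58 ± 0.41, adjusted p = 1.4e-04). Ddit4 had 41.6, 59.1, 25.4 and 126 CPM in Ctrl-LPS, against 3.53, 2.36, 4.79 and 4.53 CPM in Ctrl-PBS (4.05 ± 0.69, adjusted p = 2.8e-04). Both were lowest in Ctrl-LPS replicate 3 among the LPS libraries and above every PBS library there. Klf9, a factor induced by the receptor, had 41.8, 34.1, 4.52 and 43.2 CPM in Ctrl-LPS, against 3.56, 5.17, 3.72 and 3.77 CPM in Ctrl-PBS, so that replicate 3 lay within the PBS range. It was called with all libraries (2.93 ± 0.80, adjusted p = 0.012) and not without the 2 (adjusted p = 0.067). Sult1a1, a sulfotransferase, rose (1.62). Tsc22d3, which encodes GILZ, was called (1.40, adjusted p = 0.015) but not without Ctrl-LPS replicate 4 (1.08, adjusted p = 0.069) or Ctrl-PBS replicate 1 (1.22, adjusted p = 0.054). Nr3c1, the receptor gene, had 78.5, 84.2, 93.5 and 73.6 CPM in Ctrl-LPS, against 156, 123, 125 and 141 CPM in Ctrl-PBS (-0.72 ± 0.12, adjusted p = 2.8e-04), lower in every LPS library.

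Of 17 circadian clock genes tested, 8 were lower and 3 higher (6 and 3 without the 2 libraries). Hlf, an output factor, had 1.09, 0.722, 0.317 and 0.674 CPM in Ctrl-LPS, against 12.6, 8.65, 7.18 and 8.81 CPM in Ctrl-PBS (-3.74 ± 0.51, adjusted p = 3.2e-05). Nr1d2, a REV-ERB receptor that represses Arntl, had 4.21, 10.4, 9.43 and 5.39 CPM in Ctrl-LPS, against 44.4, 22, 27.1 and 35.4 CPM in Ctrl-PBS (-2.13 ± 0.36, adjusted p = 2.8e-04). Per1, which is also a glucocorticoid target, had 35.9, 30.6, 20.03 and 31 CPM in Ctrl-LPS, against 7.19, 8.8, 11.3 and 5.98 CPM in Ctrl-PBS (1.82 ± 0.34, adjusted p = 6.8e-04). The groups did not overlap for these 3 genes. Tef (-1.50), Dbp (-2.22) and Nr1d1 (-2.15) fell. Nfil3, which competes with Tef and Dbp for the same DNA site, rose (2.18, and 2.77 without Ctrl-PBS replicate 3). The core activators had log2 fold changes of -0.10 ± 0.21 (Arntl, adjusted p = 0.79) and -0.29 ± 0.22 (Clock, adjusted p = 0.38). The labels give the morning for the injection and 24 hours to collection for both groups.

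**Figure D4:**
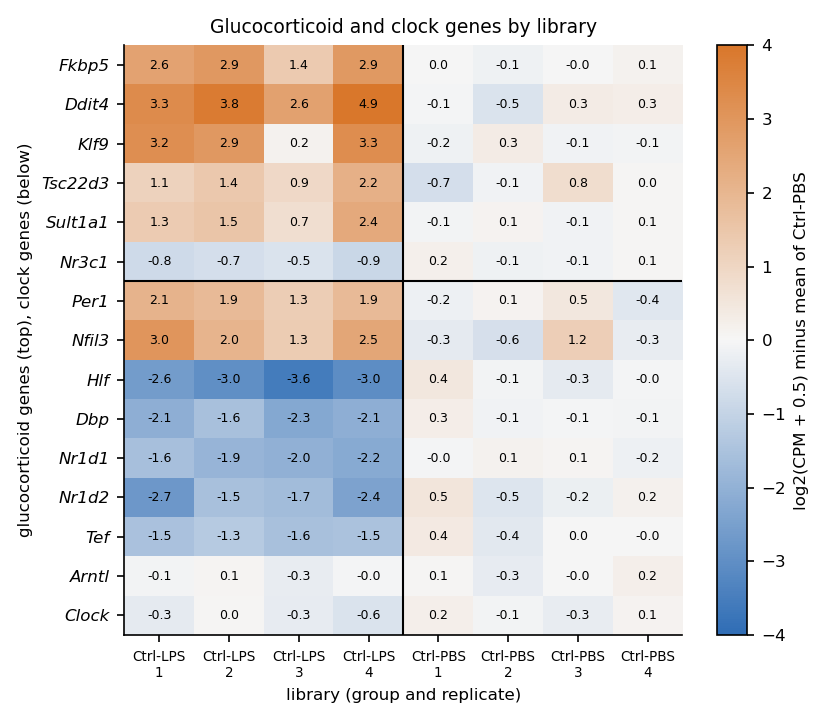
Log2 of CPM plus 0.5 relative to the mean of the 4 Ctrl-PBS libraries on the same scale, for glucocorticoid genes (upper rows) and clock genes (lower rows), in the 4 Ctrl-LPS libraries (left) and the 4 Ctrl-PBS libraries (right). Orange is higher and blue lower, and Ctrl-LPS replicate 3 is paler than the other LPS libraries for Fkbp5, Ddit4 and Klf9.

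Acute phase, iron and heme genes changed in 8 of 19 cases, 6 higher and 2 lower (5 and 2 of 18 without the 2 libraries). Fth1, the heavy chain of the iron store ferritin, had 13120, 6811, 5094 and 9929 CPM in Ctrl-LPS, against 2533, 3200, 2941 and 2733 CPM in Ctrl-PBS (1.62 ± 0.25, adjusted p = 1.0e-04). Slc40a1, the iron exporter ferroportin, had 59, 114, 94.6 and 124 CPM in Ctrl-LPS, against 296, 238, 277 and 313 CPM in Ctrl-PBS (-1.52 ± 0.20, adjusted p = 2.0e-05). The iron store gene was higher and the exporter gene lower in every LPS library. Hmox1, heme oxygenase (1.38), Slc39a14, an importer of zinc and iron (2.06), and the metallothionein Mt1 (1.78) rose. Lcn2, a siderophore-binding protein carried by neutrophils, had 549, 8.05, 5.73 and 21.9 CPM in Ctrl-LPS, against 2.86, 2.00, 1286 and 1.29 CPM in Ctrl-PBS and no call (adjusted p = 0.69). Without Ctrl-PBS replicate 3 it was higher (6.09, adjusted p = 0.031).

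Beside the counts of this paragraph, 10.8% of all genes tested were higher and 9.62% lower (6.03% and 6.33% without the 2 libraries). Lysosomal genes were higher in 12 of 29 cases and lower in 3, and in 8 and 0 without the 2 libraries. The number lower was 5 without Ctrl-PBS replicate 3, and 1 without Ctrl-LPS replicate 1 or any other PBS library. Ctsl, cathepsin L, had 3308, 2620, 3007 and 3615 CPM in Ctrl-LPS, against 1253, 1268, 1155 and 1278 CPM in Ctrl-PBS (1.34 ± 0.15, adjusted p = 5.0e-06), and Cd63, a tetraspanin of late endosomes, rose (1.72). In lipid handling 4 of 25 genes were higher and 7 lower (4 and 5 without the 2 libraries), and 7 were higher without Ctrl-PBS replicate 3. Plin2, the coat protein of lipid droplets, had 386, 227, 132 and 404 CPM in Ctrl-LPS, against 63.1, 64.6, 98.3 and 64.9 CPM in Ctrl-PBS (1.98 ± 0.26, adjusted p = 2.1e-05), and Soat1, which esterifies cholesterol, rose (0.85). Mgll, monoacylglycerol lipase (-1.37), and Lpl, lipoprotein lipase (-1.45), fell. Of 22 genes of cholesterol synthesis and uptake 2 were higher, near the 10.8% of all genes tested, and 0 lower. Eicosanoid genes were higher in 5 of 20 cases and lower in 3 (3 and 3 without the 2 libraries). Alox5, the enzyme that begins leukotriene synthesis, rose (1.34 ± 0.18), and Hpgd, which degrades prostaglandins, fell (-1.55 ± 0.20).

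Glycolysis genes were higher in 7 of 21 cases and lower in 1, with the same counts without the 2 libraries. Ldha, lactate dehydrogenase (1.00), Eno1, enolase (0.72), and Pkm, pyruvate kinase (1.06), rose, and Pdk1, which turns off pyruvate entry to mitochondria, fell (-0.84). Without Ctrl-LPS replicate 1 or Ctrl-PBS replicate 1 or 4 the number higher was 4, and without Ctrl-LPS replicate 3 or Ctrl-PBS replicate 2 it was 3. Of 93 nuclear genes of oxidative phosphorylation 10 were higher, close to the 10.8% of all genes tested, and 1 lower. The number higher was 4 without Ctrl-LPS replicate 1 or Ctrl-PBS replicate 3, 21 without Ctrl-LPS replicate 2, 5 without Ctrl-LPS replicate 4, 6 without Ctrl-PBS replicate 1 or 4, and 3 without the 2 libraries together. Ribosomal protein genes were higher in 43 of 79 cases and lower in 0, but this count rests on a few libraries. It was 9 without Ctrl-LPS replicate 1, 18 without Ctrl-LPS replicate 4, 17, 25 and 19 without Ctrl-PBS replicate 1, 3 or 4, and 7 without the 2 libraries. Their summed level was 13761, 7366, 8192 and 11918 CPM in Ctrl-LPS, against 5017, 6659, 6190 and 5524 CPM in Ctrl-PBS. Ctrl-LPS replicates 1 and 4 also had the lowest TMM factors of the 8 libraries, 0.878 and 0.892, and the part of this in the result was not tested. Ribosomal protein genes have processed pseudogenes, so their shares of reads are uncertain.

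The signature of disease-associated microglia, defined in models of neurodegeneration, moved in both directions: 10 of 32 members were higher and 8 lower (7 and 7 without the 2 libraries). Apoe, which carries lipids, had 18101, 14328, 8907 and 19301 CPM in Ctrl-LPS, against 6832, 6549, 7742 and 7560 CPM in Ctrl-PBS (1.08 ± 0.26, adjusted p = 0.0056). Spp1, osteopontin, had 3345, 1375, 1076 and 1710 CPM in Ctrl-LPS, against 479, 182, 588 and 483 CPM in Ctrl-PBS (2.11 ± 0.43, adjusted p = 0.0015). Trem2, the lipid-sensing receptor that acts upstream of the signature, had 1130, 1058, 1265 and 1443 CPM in Ctrl-LPS, against 2159, 2460, 1913 and 2105 CPM in Ctrl-PBS (-0.82 ± 0.19, adjusted p = 0.0034). Cd9 (-1.44), Clec7a (-1.14) and Mmp12 (-2.62) fell. Every LPS library was above the PBS libraries for Apoe and Spp1 and below them for Trem2.

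Counts in some smaller lists stand beside the same 10.8% and 9.62% of all genes tested. Among SLAM family receptors 3 of 10 were higher and 3 lower (2 and 3 without the 2 libraries): Cd244a stood at 5.82, while Slamf7 (-1.90) and Slamf8 (-0.66), other receptors of the family, fell. Checkpoint and costimulation genes were higher in 2 of 17 cases and lower in 5 (1 and 5 without the 2 libraries), with falls in Cd276, the ligand B7-H3 (-1.69), and Pdcd1, which encodes PD-1 (-1.09). NADPH oxidase and antioxidant genes were higher in 5 of 24 cases and lower in 1 (5 and 0 without the 2 libraries), among them Sod2, the mitochondrial superoxide dismutase (1.53). Of 18 cAMP and potassium channel genes 6 were lower and 1 higher (3 and 0 without the 2 libraries), with Kcnk12, a potassium channel, at -1.57 and Adcy9, an adenylyl cyclase, at -0.95. Of 20 adhesion genes 2 were higher and 3 lower, and 5 and 1 without the 2 libraries. Without Ctrl-PBS replicate 3 alone 6 were higher, and without Ctrl-LPS replicate 1 or Ctrl-PBS replicate 1 or 4 the number lower was 1. Itgb2, the integrin chain that pairs with CD11b, rose (0.48).

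Some lists gave counts that rested on single libraries. Genes of endoplasmic reticulum stress were higher in 6 of 19 cases and lower in 1, but in 1 and 1 without the 2 libraries and in 3 without Ctrl-PBS replicate 1 or 4. Xbp1, a factor of the unfolded protein response, had 0.52 with all libraries and 0.42 without the 2 (adjusted p = 0.04). Cell cycle genes were lower in 7 of 36 cases and higher in 1, and lower in 3 without the 2 libraries. The number lower was 1 without Ctrl-PBS replicate 3, 11 without Ctrl-PBS replicate 2, and 4 without Ctrl-LPS replicate 2 or 3. Cenpf, a kinetochore protein, was the member that fell whichever library was left out (-1.42, adjusted p = 0.0036).

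Among called genes the largest gains and losses in CPM were those of abundant transcripts. Mean C1qb was 23020 CPM in Ctrl-LPS and 11620 CPM in Ctrl-PBS, and mean Ctss, cathepsin S, was 21027 CPM in Ctrl-LPS and 12106 CPM in Ctrl-PBS. The largest loss of a called gene was that of P2ry12, with a mean of 1353 CPM in Ctrl-LPS and 5876 CPM in Ctrl-PBS. Itm2b, a membrane protein of neural tissue, followed, with 4610 CPM in Ctrl-LPS and 6904 CPM in Ctrl-PBS (-0.58 ± 0.16, adjusted p = 0.011). Per kilobase of exon, P2ry12 stood at 532 CPM per kilobase in Ctrl-LPS and 2308 CPM per kilobase in Ctrl-PBS, and Gpr34 at 183 CPM per kilobase in Ctrl-LPS and 1040 CPM per kilobase in Ctrl-PBS.

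Evenness differed between called genes. Plod1, a collagen lysyl hydroxylase, had 605, 653, 619 and 621 CPM in Ctrl-LPS, against 390.3, 312, 330.5 and 373 CPM in Ctrl-PBS (0.83 ± 0.11), with LPS libraries nearly equal. At the other end, Upp1, uridine phosphorylase, had 52.2, 0.694, 0.74 and 1.12 CPM in Ctrl-LPS, against 0, 0, 2.88 and 0.0839 CPM in Ctrl-PBS, and Arg1 had 44, 2.39, 0.845 and 9.43 CPM in Ctrl-LPS, against 0, 0, 0 and 0.643 CPM in Ctrl-PBS. For these 2 genes Ctrl-LPS replicate 1 was the highest by a wide margin, and the neutrophil marker sum was raised in the same library. Upp1 was called with all libraries (4.20 ± 1.47, adjusted p = 0.048), and not without Ctrl-LPS replicate 1 (0.20, adjusted p = 0.94) or Ctrl-PBS replicate 1, 2 or 4 (adjusted p 0.094 to 0.12). Without Ctrl-PBS replicate 3 Upp1 was called at 8.69. Arg1 was called with all libraries (6.42 ± 1.20, adjusted p = 7.0e-04) and in each omission that left counts in Ctrl-PBS, with 4.68 without Ctrl-LPS replicate 1. The size of these values rests on the 0.643 CPM in Ctrl-PBS replicate 4, and no fold is given without that library.

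Other genes turned on Ctrl-PBS replicate 3. Elane, neutrophil elastase, had 0.561, 0, 0 and 0.0963 CPM in Ctrl-LPS, against 0, 0, 446 and 0 CPM in Ctrl-PBS. It was called lower with all libraries (-9.54, adjusted p = 0.018) and not without the 2 (adjusted p = 0.63) or without Ctrl-PBS replicate 3 alone (adjusted p = 0.27), where Ctrl-PBS had no counts. The call was also lost without Ctrl-LPS replicate 4 (-9.39, adjusted p = 0.052), and the value was -11.76 without Ctrl-LPS replicate 1. Conversely, 133 genes were called without the 2 libraries and not with all. Lrg1, an acute phase glycoprotein, had 276, 62.5, 39.7 and 119.9 CPM in Ctrl-LPS, against 0.244, 0.441, 146 and 0.0559 CPM in Ctrl-PBS (1.77 ± 1.43, adjusted p = 0.41, and 8.17 ± 1.46, adjusted p = 9.2e-04, without the 2, with 8.89 without Ctrl-PBS replicate 3 alone). Il18rap, a chain of the interleukin-18 receptor, had 19.6, 21.7, 7.69 and 15.9 CPM in Ctrl-LPS, against 1.1, 0.701, 13.3 and 0.699 CPM in Ctrl-PBS (2.04 ± 0.75, adjusted p = 0.06, and 4.16 ± 0.60, adjusted p = 1.3e-04, without the 2, with 4.24 without Ctrl-PBS replicate 3 alone). In both genes Ctrl-PBS replicate 3 alone of the PBS libraries reached the LPS range.

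Markers of other cells moved with the groups in some cases. Over all genes tested 10.8% were higher and 9.62% lower (6.03% and 6.33% without the 2 libraries). Of 12 endothelial and mural markers 6 were lower and 0 higher in Ctrl-LPS (4 and 0 without the 2 libraries, 3 and 0 without Ctrl-PBS replicate 2), with a summed level of 32.4, 19.6, 37.3 and 23.1 CPM in Ctrl-LPS, against 63.0, 114, 51.5 and 54.0 CPM in Ctrl-PBS. Erythroid markers summed to 429, 72.3, 162 and 111 CPM in Ctrl-LPS, against 273, 1299, 610 and 484 CPM in Ctrl-PBS. Of 7 erythroid markers 4 were lower, and 5 without the 2 libraries. With 1 library left out the number lower reached 6, and it was 1 without Ctrl-LPS replicate 2 or 4 or Ctrl-PBS replicate 2. Ighm, the immunoglobulin mu chain, had 248, 256, 537 and 296 CPM in Ctrl-LPS, against 969.8, 1025, 945 and 914 CPM in Ctrl-PBS (-1.53 ± 0.28, adjusted p = 6.8e-04). Of 14 monocyte markers 1 was higher and 1 lower (0 and 1 without the 2 libraries), and 5 were higher without Ctrl-PBS replicate 3. Their summed level was 1494, 389, 295 and 382 CPM in Ctrl-LPS, against 180, 200, 3889 and 216 CPM in Ctrl-PBS. Of 12 border-associated macrophage markers 3 were higher and 1 lower, both ways (1 higher without Ctrl-LPS replicate 2 or 4 or Ctrl-PBS replicate 1 or 2), with sums of 393 to 578 CPM in Ctrl-LPS and 348 to 438 CPM in Ctrl-PBS. Of 10 tested markers of T, NK and B cells 4 were lower and 0 higher (2 and 0 without the 2 libraries), and the number lower was 2 without Ctrl-LPS replicate 3 or Ctrl-PBS replicate 1, 2 or 3 and 1 without Ctrl-LPS replicate 4. Of 10 astrocyte, 10 oligodendrocyte and 7 neuron markers 0 were called by edgeR with all libraries, at an unadjusted p under 0.05 for 8 and by DESeq2 for 4. Without the 2 libraries 1 astrocyte and 2 oligodendrocyte markers were lower. Without Ctrl-LPS replicate 1 alone 1 astrocyte and 3 oligodendrocyte markers were lower, without Ctrl-LPS replicate 3 alone 1 neuron marker, without Ctrl-PBS replicate 3 alone 1 oligodendrocyte marker, and without Ctrl-PBS replicate 4 alone 1 oligodendrocyte and 1 neuron marker. The part of these cells in any result was not tested.

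The response of control mice was set beside that of GW mice and of CBD-treated GW mice by testing the difference between responses. Between control and GW mice 0 genes were called by edgeR, 2099 had an unadjusted p under 0.05, and DESeq2 called 60. Without Ctrl-LPS replicate 3 edgeR called 13. Between control and CBD-treated GW mice 327 genes were called, 170 with a higher (1.03%) and 157 with a lower (0.948%) log2 fold change in control mice, and 213 without the 2 libraries. The count was 510 without Ctrl-LPS replicate 3, 188 and 214 without Ctrl-PBS replicate 1 or 4, 166 and 200 without GW-CBD-LPS replicate 1 or 3, and 122, 105 and 108 without GW-CBD-PBS replicate 2, 3 or 4. The CBD-treated mice differ from control mice in exposure and in CBD, which cannot be told apart in this difference. Adamtsl4 had a log2 fold change of 6.28 ± 0.57 in control mice and 0.95 ± 0.53 in CBD-treated GW mice, a difference of 5.33 ± 0.73 (adjusted p = 0.0012). Myd88 had 0.98 ± 0.09 in control mice and 0.03 ± 0.10 in CBD-treated GW mice, a difference of 0.94 ± 0.13 (adjusted p = 0.0012). P2ry12 had -2.12 ± 0.20 in control mice and -0.57 ± 0.20 in CBD-treated GW mice, a difference of -1.55 ± 0.28 (adjusted p = 0.0083), and Hlf had -3.74 ± 0.51 in control mice and -0.64 ± 0.48 in CBD-treated GW mice, a difference of -3.10 ± 0.70 (adjusted p = 0.023). In these 4 genes the response of GW mice without CBD was 5.60 ± 0.56, 0.70 ± 0.09, -1.66 ± 0.21 and -2.81 ± 0.54, in the same direction as in control mice. The responses use separate libraries but 1 estimate of the spread.

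**Figure D5:**
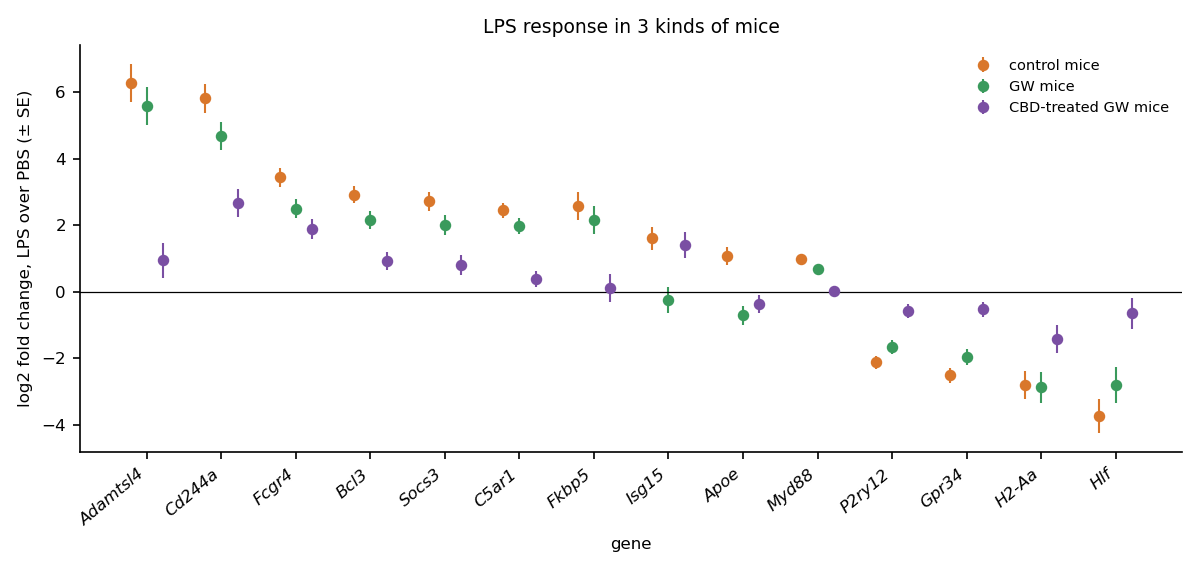
Log2 fold change for LPS with its SE (bars) in control mice (orange), GW mice (green) and CBD-treated GW mice (purple), for 14 genes described in the text. The control values lie farthest from 0 for 13 of the genes, all but H2-Aa, and the values of CBD-treated GW mice lie nearest to 0 for 13, all but Isg15. Many of these genes were named for a large or clear response in control mice, a choice that by itself favours control values far from 0.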

How the data were processed

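Gene counts of 22 libraries of sorted mouse microglia were used as deposited. The count table holds raw counts per gene made by the authors, and the submitters' processing notes name the build GRCm38 (mm10), while the aligner and counter are not given in those sources. Totals of 31987884 to 38831070 counts in the 8 control libraries limit precision mainly for genes of few counts. Symbols came from the table, with 27 that a spreadsheet had turned into dates restored from gene IDs. All 22 libraries entered 1 fit with edgeR 4.0.16 (R 4.3.3): genes kept by filterByExpr (16554), TMM scaling, 6 group means, the quasi-likelihood test and Benjamini-Hochberg adjustment over all genes tested, with calls at an adjusted p under 0.05. A value written as log2 fold change or beside a gene in brackets is Ctrl-LPS over Ctrl-PBS, followed by its SE where ± is given, and adjusted p-values are from this fit unless DESeq2 1.42.0 or limma 3.58.1 is named. CPM use TMM-scaled library sizes. Differences between responses were contrasts of the same fit.

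Alternatives were RLE size factors, no filter, DESeq2, limma voom with quality weights, the replicate number as a block, the compared groups alone, and libraries left out. Leaving out GW-PBS replicate 1 as well was added after seeing the data. Gene lists and members were chosen with earlier results of these data known. Genes were named by rule: among genes called in the same direction with and without the 2 libraries with neutrophil transcripts, the 15 highest and 15 lowest log2 fold changes (5 CPM or more in the group where the gene was higher), the 15 smallest p and the 8 most and 8 least variable in Ctrl-LPS, the 12 largest CPM gains and 12 largest losses, the 10 calls that moved most and the 10 called only without the 2 libraries, the 4 called members with the smallest p of each list, and index genes. Of 181 genes given with values, 33 fall outside this rule and were chosen after their values were seen. Promoters are RefSeq's for GRCm38.p6. Gene models with near-identical copies or antisense partners may share reads, since the use of strand in counting is not stated. Figures were drawn with matplotlib 3.10.9. Some genes of the lists are counted but not reported here by name.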

Additional observations from a re-analysis of the deposited data

Results flagged for a closer look

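Dixon's critical value at 95% applies to the gap between a library and the next, divided by the range of its group. Where values are normal, chance puts about 1 group in 20 above it. Of 154 groups of 4 libraries examined, those of the genes and marker sums given by library above, 37 held a library above it. In Ctrl-LPS replicate 1 these were Ccl12 (1712 CPM), Ccl2 (310 CPM), Cd74 (812 CPM), Cxcl10 (74.1 CPM), Il1b (487 CPM), Il6 (10.7 CPM), Lcn2 (549 CPM), Msr1 (415 CPM), Ptpn1 (963 CPM), S100a9 (805 CPM), Tnf (296 CPM), Upp1 (52.2 CPM), the sum of neutrophil markers (3764 CPM) and the sum of monocyte markers (1494 CPM). In Ctrl-LPS replicate 3 these were Adcy8 (0.264 CPM), Duoxa1 (0.502 CPM) and Ighm (537 CPM). In Ctrl-PBS replicate 2 these were C1qb (14002 CPM), C4b (50.1 CPM) and Klf9 (5.17 CPM). In Ctrl-PBS replicate 3 these were C3 (95.8 CPM), C5ar1 (470.2 CPM), Elane (446 CPM), Il18rap (13.3 CPM), Il1b (300.4 CPM), Itgal (36.5 CPM), Lcn2 (1286 CPM), Lrg1 (146 CPM), Plin2 (98.3 CPM), S100a9 (5343 CPM), Saa3 (0.404 CPM), Slfn2 (158 CPM), Tnf (73.7 CPM), Upp1 (2.88 CPM), the sum of neutrophil markers (29216 CPM) and the sum of monocyte markers (3889 CPM). In Ctrl-PBS replicate 4 it was Arg1 (0.643 CPM). Ctrl-LPS replicate 1 and Ctrl-PBS replicate 3 are the libraries with neutrophil transcripts. Some genes were named for their spread or for their shift without these 2 libraries, and some groups hold mostly values of 0. The number of flagged groups therefore cannot be compared with chance.

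The response to LPS differed between control and CBD-treated GW mice, at an adjusted p under 0.05 for the difference by edgeR, for 54 genes named above, of which 35 were also called without the 2 libraries. The log2 fold change was higher in control mice for 36 of them, with differences of 8.97 (Plet1), 8.51 (Arg1), 5.33 (Adamtsl4), 4.21 (Cxcl13), 3.96 (Ddit4), 3.15 (Cd244a), 3.14 (Msr1), 3.04 (Ms4a6c), 2.46 (Fkbp5), 2.18 (Il15ra), 2.06 (C5ar1), 2.00 (Bcl3), 1.98 (Cebpb), 1.92 (Socs3), 1.85 (Slc39a14), 1.85 (Klf13), 1.66 (Il4ra), 1.59 (Plin2), 1.56 (Fcgr4), 1.48 (Gpr35), 1.47 (Psat1), 1.41 (Ifi204), 1.23 (Spint1), 1.20 (Csf2rb), 1.19 (Csf2rb2), 1.19 (Batf), 1.18 (Fcgr3), 1.14 (Alox5), 1.09 (Rab32), 1.06 (Hmox1), 1.06 (Tnip2), 0.98 (Ptpn1), 0.94 (Myd88), 0.89 (Runx1), 0.88 (Soat1) and 0.75 (Fcgr2b). It was lower in control mice for 18 of them, with differences of -5.72 (Duoxa1), -5.43 (Adcy8), -3.50 (Tnfrsf17), -3.48 (Nr1d1), -3.17 (Dbp), -3.10 (Hlf), -2.93 (Ramp1), -2.42 (Pla2g2d), -2.29 (Nr1d2), -1.99 (Gpr34), -1.68 (Cd180), -1.55 (P2ry12), -1.53 (Tef), -1.33 (Kcnk12), -1.30 (Chst8), -1.29 (Hpgd), -1.15 (Siglech) and -1.10 (Slc40a1). For 10 of these genes the fitted log2 fold changes of the 2 kinds of mice had opposite signs, Arg1, Dbp, Klf13, Nr1d1, Nr1d2, Plet1, Runx1, Soat1, Tef and Tnip2. Nr1d1 had -2.15 in control mice and 1.33 ± 0.46 in CBD-treated GW mice, and Klf13 had 1.83 in control mice and -0.03 ± 0.33 in CBD-treated GW mice. Isg15 and Apoe were not called for the difference (adjusted p = 0.93 and 0.053). Many of the named genes were chosen for their response in control mice, so the 54 do not stand for all genes tested. Over all 16554 genes tested 327 were called for this difference, 1.03% higher and 0.948% lower in control mice. Exposure and CBD cannot be told apart in these differences.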

How the results depend on the processing

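With all libraries 3378 genes were called for LPS in control mice, 1785 higher and 1593 lower. Leaving out the 2 libraries with neutrophil transcripts gave 2021, 986 higher and 1035 lower, and leaving out GW-PBS replicate 1 as well, chosen after seeing the data, gave 2316, with 1156 higher. Leaving out each control library in turn gave 2384 to 3417 calls, 1179 to 1918 higher and 1205 to 1719 lower. Calls numbered 3327 with RLE size factors, 2729 with no filter, 4014 with DESeq2, 4494 with voom, 2700 with the compared groups alone and 3211 with the replicate block, whose numbers do not pair the samples (the correlation of same-numbered deviations was -0.226 to -0.01 over the 4 numbers). The difference between control and GW mice had 0 calls by edgeR, 60 by DESeq2, 111 by voom and 0 to 13 with 1 library left out. The difference between control and CBD-treated GW mice had 327 calls, 888 by DESeq2, 2194 by voom, 213 without the 2 libraries and 105 to 510 with 1 library left out. The cause was not tested. Of the 163 genes named as called, 156 kept their call in every omission of 1 control library that left counts in both groups. Adcy8 without Ctrl-LPS replicate 3, Saa3 without Ctrl-PBS replicate 3 and Arg1 without Ctrl-PBS replicate 4 were therefore not checked. Many of the named genes were chosen from those called with and without the 2 libraries, or for a small p. The 156 follows in part from that choice and does not stand for all calls. Among all 3378 calls 1912 held whichever control library was left out. Over the other settings 22 of 1297 values of the named genes with a test lost the call. Lcn2, with no call and -1.14 with all libraries, ranged over -4.77 to 6.09 with 1 library left out and was called at 6.09 without Ctrl-PBS replicate 3. No fold is given where a group has no counts.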
